A study of Mus musculus with 42 samples.

Results

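Antigen presentation by major histocompatibility complex (MHC) class II was followed across MC38 tumors through 8 genes: the classical chains H2-Aa, H2-Ab1 and H2-Eb1, the peptide-exchange chains H2-DMa, H2-DMb1 and H2-DMb2, the invariant chain Cd74 and the transcriptional coactivator Ciita. They were taken by name from a table of 26811 genes, and all 8 were among the 16932 genes that passed the filter on low counts. The list was drawn up with their levels in these same tumors already known, so their levels and group differences are given below as a description. Calls of members in these comparisons are given on the same footing, and not as a test of them. Tests over all genes are given for other genes of the pathway and for splits of tumors that the rule for choosing the members did not name. The lists of those other genes were also drawn up with earlier results known, so their counts are not independent evidence of a direction.

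MHC class II molecules are pairs of an alpha and a beta chain that carry peptides from the endosome to the surface of an antigen-presenting cell, where CD4 T cells read them. The invariant chain fills the groove of the new molecule and steers it to the endosome, cathepsins trim it to a short remnant, and the DM pair exchanges that remnant for antigen peptide. Transcription of the class II chains, the invariant chain and the DM pair depends on Ciita, which does not bind DNA itself but docks on a complex of RFX, CREB and NF-Y proteins at the X and Y boxes of class II promoters. Interferon gamma induces Ciita. In tumors, macrophages and dendritic cells are the usual carriers of class II, and B cells and some tumor cells can carry it as well.

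MC38 is a colon carcinoma line of C57BL/6 origin. These cells were placed under the skin of female CC75×B6 mice (CC075/UncJ x C57BL/6J F1) aged 8 to 12 weeks, a background chosen by the study as a responder to PD-1 blockade. Of 42 tumors, 5 came from mice given isotype control antibodies, 6 from mice given aPD1, 9 from aPD1 + aGMCSF, 11 from aPD1 + aIL2RB and 11 from aPD1 + aGMCSF + aIL2RB. The blocking antibodies to the cytokine GM-CSF (100 µg) and to the receptor subunit IL2RB (200 µg), or their isotypes, were given every 3 days from engraftment until the tumor measured 75 to 110 mm3. A single 200 µg dose of aPD1 or its isotype followed, and the tumor was taken 48 h later. Every group thus shared the F1 background, the tumor line and the schedule, and by their labels the groups differed in the antibodies. The blocking antibodies act in the whole animal, so a group does not single out a cell type. The comparison asks whether blocking either cytokine signal alters what a single dose of aPD1 does to the tumor.

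Whole tumors were sequenced, and a lower value can mean fewer cells that express a gene or less RNA in each of those cells, which cannot be told apart here. Total expected counts ran from 15109228 to 24101674 per tumor except for replicate 4 of aPD1 + aGMCSF + aIL2RB, which had 7155486. Ribosomal RNA genes took 1.72 to 17.9% of the counts. Levels are given as CPM, counts scaled to the normalized size of each library, and as CPM per kilobase of exon where genes are compared with each other. The exon length takes in every annotated exon of a gene over all its transcripts, so ranks and ratios between genes depend on the annotation. Shisal2b, a marker of the MC38 cells, and the macrophage markers were detected in the tumors of every group. Within a group the tumors carry replicate numbers, and earlier work on these files had split each group by them, tumors 1 to 6 against 7 to 11 in both aIL2RB groups. The split coincides with the first 22 and the last 20 columns of the table. The labels do not say what separates the tumors, so a difference between lower and higher numbers is a difference between sets of tumors of 1 group with no stated cause.

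Of the members, 6 lie within the MHC region of chromosome 17 (GRCm38). H2-DMa (ENSMUSG00000037649) spans chr17:34119541-34139101, H2-DMb2 chr17:34143307-34151555, H2-DMb1 chr17:34153072-34160230, H2-Ab1 chr17:34257689-34269419, H2-Aa chr17:34282744-34287823 and H2-Eb1 chr17:34305867-34316674. All are on the plus strand but H2-Aa. Cd74 lies at chr18:60803848-60812652 and Ciita at chr16:10480059-10528418, both on the plus strand. Reads from all exons, untranslated parts included, enter each gene's count.

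Because the members moved together, their promoters are shown for the elements through which Ciita is known to act. RefSeq windows on GRCm38.p6, from 250 bases before to 50 bases after the annotated start, were at hand for 5 of the 8 members. The letters TGATTGG, the inverted CCAAT core of the Y box, and AACNGATG, part of the X box, were searched on both strands. The letters were chosen after the sequences had been seen. In capitals below are the matches, H2-Ob being added as a class II gene outside the member list.

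H2-Aa (chr17:34287774-34288073, minus strand): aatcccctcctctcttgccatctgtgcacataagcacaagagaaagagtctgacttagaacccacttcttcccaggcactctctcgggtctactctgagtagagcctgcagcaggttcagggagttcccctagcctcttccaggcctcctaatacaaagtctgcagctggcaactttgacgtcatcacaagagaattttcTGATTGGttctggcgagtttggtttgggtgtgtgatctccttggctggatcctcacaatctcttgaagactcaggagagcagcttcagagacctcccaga
H2-Eb1 (chr17:34305617-34305916, plus strand): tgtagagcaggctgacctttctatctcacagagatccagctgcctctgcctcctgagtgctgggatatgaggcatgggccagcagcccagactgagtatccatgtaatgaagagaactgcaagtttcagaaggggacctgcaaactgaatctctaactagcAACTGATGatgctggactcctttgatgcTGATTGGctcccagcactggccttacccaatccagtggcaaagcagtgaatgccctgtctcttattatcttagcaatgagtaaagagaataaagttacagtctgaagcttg
H2-DMb1 (chr17:34152941-34153240, plus strand): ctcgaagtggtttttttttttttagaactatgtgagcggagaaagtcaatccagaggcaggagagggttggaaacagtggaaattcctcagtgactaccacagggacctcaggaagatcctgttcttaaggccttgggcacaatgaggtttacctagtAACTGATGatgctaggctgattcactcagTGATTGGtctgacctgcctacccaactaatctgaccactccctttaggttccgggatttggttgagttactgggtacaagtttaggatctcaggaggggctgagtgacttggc
H2-DMb2 (chr17:34144999-34145298, plus strand): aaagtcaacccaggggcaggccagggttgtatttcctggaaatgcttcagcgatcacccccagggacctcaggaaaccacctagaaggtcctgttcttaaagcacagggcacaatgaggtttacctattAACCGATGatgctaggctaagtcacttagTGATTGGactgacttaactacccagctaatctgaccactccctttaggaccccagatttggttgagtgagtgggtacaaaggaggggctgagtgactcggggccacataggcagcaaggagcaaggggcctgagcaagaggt
H2-Ob (chr17:34238655-34238954, plus strand): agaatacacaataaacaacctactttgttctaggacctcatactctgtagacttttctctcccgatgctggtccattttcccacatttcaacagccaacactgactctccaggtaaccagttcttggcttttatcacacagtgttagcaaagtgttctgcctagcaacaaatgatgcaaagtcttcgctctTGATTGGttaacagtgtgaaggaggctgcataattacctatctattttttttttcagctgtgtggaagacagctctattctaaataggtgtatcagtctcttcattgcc

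The Y box core stood in the windows of 4 of the 5 members, at position -50 from the start in H2-Aa, -61 in H2-Eb1, -63 in H2-DMb1 and -92 in H2-DMb2. The X box letters stood upstream of it in H2-Eb1, H2-DMb1 and H2-DMb2. In H2-Eb1 the starts of the 2 matches were 28 bases apart, and in H2-DMb1 and H2-DMb2 they were 29 bases apart. Of 32851 promoter windows of the same length, 7.82% held TGATTGG, 2.32% held AACNGATG and 0.186% held both. H2-Ob, a chain of the DO pair that restrains DM, held the Y box letters at -59 but not the X box letters. Of the further class II genes whose sequence is not shown, H2-Oa held the Y box letters at -45, and H2-Eb2 held both, at -102 and -130, with starts 28 bases apart as in H2-Eb1. Neither of the 2 windows of H2-DMa held these letters, which says only that they are not in those windows.

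The members spanned a wide range of abundance. In the aPD1 group the median level per kilobase was 982 CPM for Cd74, 334 for H2-Eb1, 221 for H2-Ab1 and 192 for H2-Aa. Without division by length the medians were 731 CPM for H2-Aa, 649 for H2-Eb1 and 567 for H2-Ab1, in another order. The peptide-exchange chains were lower, at 52.3 CPM per kilobase for H2-DMb1 and 19.3 for H2-DMa. Ciita, a regulator rather than a structural chain, stood at 3.94, and H2-DMb2 at 2.18. The deposited counts behind these levels ran from 250 to 19050 for H2-Aa, from 483 to 45448 for Cd74 and from 16 to 1325 for Ciita, and all 3 were lowest in replicate 8 of aPD1 + aGMCSF + aIL2RB. H2-DMb2 had 8.4 to 124.5 counts and is the least certain of the members. Its longest coding transcript and that of H2-DMb1 were identical at 1003 of 1045 aligned bases (96.0%), and in 39 tumors both genes had fractional counts. Added together they gave a whole number in each of the 42 tumors, to within 1e-06 of a count. Reads were thus shared out between the pair, with 2.95 to 9.81% assigned to H2-DMb2. H2-Ea, the alpha partner of H2-Eb1 and a gene that C57BL/6 mice do not express, was listed at 0 in 41 of 42 tumors. The levels of H2-Eb1 RNA therefore do not show that the I-E pair was formed. H2-Eb2 was at 0 in 14 tumors and reached 15 counts at most, and neither H2-Ea nor H2-Eb2 was tested.

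**Figure D1:**
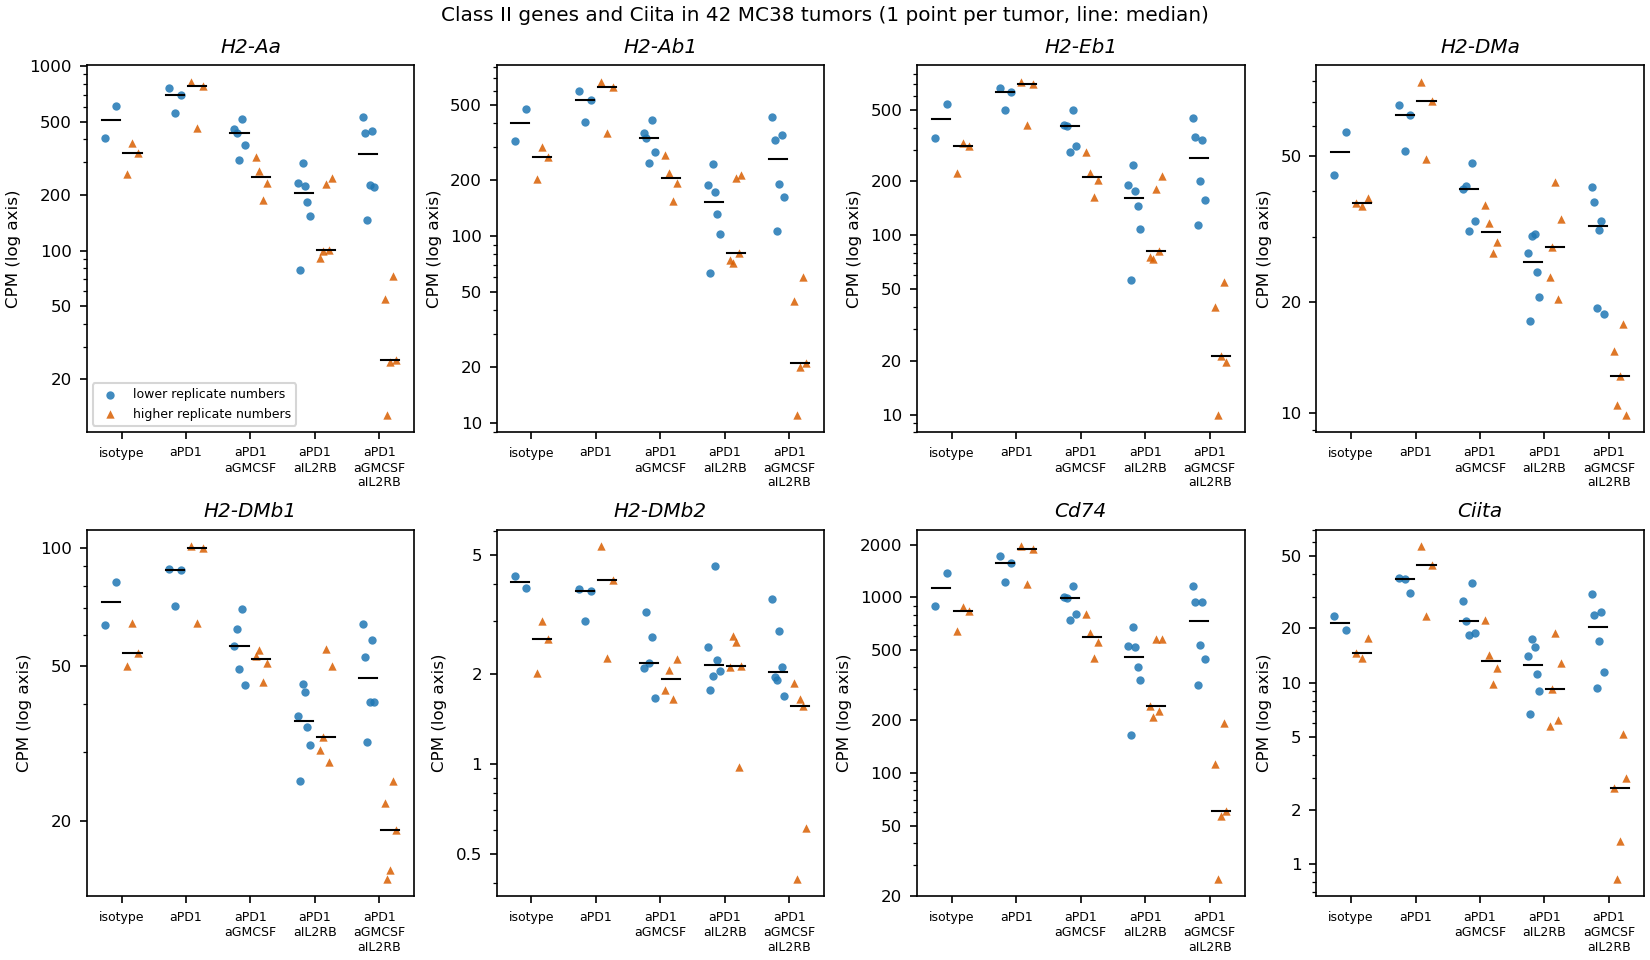
Level of each of the 8 members in every tumor (CPM, log axis) by antibody group, circles for lower and triangles for higher replicate numbers, lines for the median of each set. In aPD1 + aGMCSF + aIL2RB the circles and triangles stand apart, H2-Aa lying between 147 and 528 CPM in tumors 1 to 6 and between 12.8 and 73.2 CPM in tumors 7 to 11.

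The classical chains were highest in aPD1 tumors and lowest in the groups with aIL2RB. H2-Aa, the alpha chain of I-A, was at 409, 607, 260, 382 and 337 CPM in the 5 isotype tumors. In the 6 aPD1 tumors it had a lowest level of 460, a median of 731 and a highest level of 820 CPM. The ranges overlapped, as 1 isotype tumor, replicate 2, lay within the aPD1 range. The lowest, median and highest H2-Aa levels were 189, 322 and 516 CPM in aPD1 + aGMCSF and 78.0, 183 and 298 CPM in aPD1 + aIL2RB. In aPD1 + aGMCSF + aIL2RB they were 12.8, 147 and 528 CPM, so that the highest tumor of this group was 41.1 times its lowest, against 1.78 times in aPD1. In the group with both blocking antibodies 1 tumor therefore lay within the aPD1 range and 5 lay below every tumor of the other groups.

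H2-Ab1, the beta chain of I-A, was at 321, 479, 201, 298 and 264 CPM in the isotype tumors. Its lowest, median and highest levels were 357, 567 and 667 CPM in aPD1 and 154, 272 and 418 CPM in aPD1 + aGMCSF. They were 63.4, 131 and 244 CPM in aPD1 + aIL2RB and 11.0, 107 and 431 CPM in aPD1 + aGMCSF + aIL2RB. H2-Ab1 followed its partner closely: per kilobase, H2-Aa was 0.758 to 1.0 times H2-Ab1 in the 42 tumors, with a median of 0.844. H2-Eb1, the beta chain of I-E, was at 349, 541, 223, 330 and 316 CPM in isotype tumors. Its median was 649 CPM in aPD1 (412 to 719), 292 in aPD1 + aGMCSF (163 to 498), 145 in aPD1 + aIL2RB (56.3 to 247) and 115 in aPD1 + aGMCSF + aIL2RB (9.91 to 454). For all 3 chains every aPD1 + aIL2RB tumor was below every aPD1 tumor, as for 2.99% of all genes.

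Cd74, the invariant chain, was the most abundant member in each group. The isotype tumors had 896, 1370, 641, 884 and 843 CPM. The median was 1650 CPM in aPD1 (1200 to 1960), 805 in aPD1 + aGMCSF (451 to 1170), 400 in aPD1 + aIL2RB (165 to 679) and 319 in aPD1 + aGMCSF + aIL2RB (24.8 to 1160). Every tumor of these 3 blocked groups was below the lowest aPD1 tumor for Cd74, which held for 2.2%, 2.99% and 0.827% of all genes in the groups taken in that order. Per kilobase, Cd74 was 4.37 to 5.97 times H2-Aa over all 42 tumors, while Cd74 varied 78.9-fold and H2-Aa 63.9-fold.

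The DM chains, which load peptide, varied less. H2-DMa was at 44.4, 58.1, 37.1, 36.4 and 38.3 CPM in isotype tumors. Its lowest, median and highest levels were 49.0, 66.6 and 79.3 CPM in aPD1, 27.2, 33.3 and 47.7 in aPD1 + aGMCSF, 17.7, 27.2 and 42.3 in aPD1 + aIL2RB, and 9.84, 18.5 and 41.2 in aPD1 + aGMCSF + aIL2RB. No tumor of the 3 blocked groups reached the lowest aPD1 tumor, with the same shares of all genes (2.2%, 2.99% and 0.827%). H2-DMb1 was at 63.6, 81.6, 49.8, 64.3 and 53.9 CPM in isotype tumors, with a median of 88.0 in aPD1 (64.1 to 101), 52.9 in aPD1 + aGMCSF (44.7 to 69.8), 34.9 in aPD1 + aIL2RB (25.4 to 55.1) and 31.9 in aPD1 + aGMCSF + aIL2RB (14.2 to 63.9). H2-DMb2, with its shared reads, was at 4.25, 3.88, 2.02, 3.0 and 2.62 CPM in isotype tumors and had medians of 3.81, 2.09, 2.12 and 1.86 CPM in aPD1, aPD1 + aGMCSF, aPD1 + aIL2RB and aPD1 + aGMCSF + aIL2RB, with overlapping ranges. Over all 42 tumors the highest level was 8.06 times the lowest for H2-DMa and 7.14 times for H2-DMb1, against 63.9 times for H2-Aa and 69.4 times for Ciita.

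Ciita, the coactivator on which the other members depend, was at 23.3, 19.5, 14.6, 13.8 and 17.7 CPM in isotype tumors. The lowest, median and highest levels were 23.4, 37.6 and 57.0 CPM in aPD1, so that every aPD1 tumor was above every isotype tumor, by a narrow margin. Ciita was the 1 member of which this held, and it held for 3.38% of all genes. They were 9.86, 18.9 and 35.6 CPM in aPD1 + aGMCSF, 5.75, 11.2 and 18.9 in aPD1 + aIL2RB, and 0.821, 9.41 and 30.9 in aPD1 + aGMCSF + aIL2RB. The aIL2RB tumors all lay below the aPD1 tumors, while the other 2 blocked groups overlapped with them.

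Ordered by the mean of log2 CPM, the groups ran aPD1, isotype, aPD1 + aGMCSF, aPD1 + aIL2RB and aPD1 + aGMCSF + aIL2RB for 6 of the 8 members. For Ciita the isotype and aPD1 + aGMCSF groups changed places, and for H2-DMb2 the aPD1 + aIL2RB and aPD1 + aGMCSF groups did. Most neighbours in this order differed by less than the pooled standard deviation within groups, which was 1.08 on the log2 scale for H2-Aa and 0.464 for H2-DMa. The exceptions were the step from aPD1 + aGMCSF to aPD1 + aIL2RB for H2-Eb1 (1.22 against 1.10) and H2-DMb1 (0.547 against 0.469), and the step from aPD1 to isotype for H2-DMa (0.578 against 0.464).

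Against isotype, aPD1 tumors had higher fitted levels of all 8 members when the tumors were pooled. With lower-numbered tumors alone H2-DMb2 was at -0.20, and the median of the 8 was 0.38. The log2 difference was 0.77 (SE 0.55) for H2-Aa, 0.77 (SE 0.55) for H2-Ab1, 0.78 (SE 0.57) for H2-Eb1 and 0.78 (SE 0.55) for Cd74. It was 1.12 (SE 0.50) for Ciita, 0.58 (SE 0.26) for H2-DMa, 0.45 (SE 0.26) for H2-DMb1 and 0.25 (SE 0.31) for H2-DMb2. The median of the 8 was 0.77, in a fit where the median over all genes lay between -0.0082 and 0.016 in every comparison. None of the 8 was called at an adjusted p of 0.05 by edgeR's quasi-likelihood test, where 6.17% of the 16932 genes were called higher and 2.54% lower. Calls of members in this and the later group comparisons come from values that guided the choice of members, and nothing is read from them.

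Of the 27 tested genes of the pathway list outside the members, 11 rose in aPD1 against isotype and none fell (list median 0.189, edgeR with Benjamini-Hochberg adjustment). With lower-numbered tumors alone 0 were called, and without aPD1 replicate 4 the count was 5. The list holds further class II chains, promoter factors, the interferon gamma path, endosomal enzymes and the ligases that remove class II from the surface. Ctss, the cathepsin that makes the last cuts in the invariant chain, rose by 0.77 (adjusted p = 0.0162), and Marchf1, the ligase that ubiquitinates class II chains, rose by 1.04 (adjusted p = 0.0148). Both calls were lost without aPD1 replicate 4, at adjusted p of 0.0623 and 0.05995. Ifng itself differed by 1.53 (SE 0.64) and did not pass (adjusted p = 0.129). Ctsb, Ctsd, Ctsh, Ctsz, Ifi30, Lgmn, Ifngr2 and Jak1 were also called, between 0.19 and 0.64. Macrophage markers rose at the same time, 7 of 8 passing the test, with a summed level of 2310 to 2730 CPM in isotype and 2640 to 5040 CPM in aPD1 tumors. The summed T cell markers were 22.3 to 40.2 CPM and 47.4 to 93.2 CPM, with 0 of 5 called. Fibroblast markers rose in 3 of 3 cases, with sums of 443 to 766 CPM in isotype and 451 to 1680 CPM in aPD1, B cell markers in 1 of 5 (2.12 to 9.36 and 2.8 to 13.6 CPM) and conventional dendritic cell markers in 0 of 8 (70.2 to 97.0 and 83.8 to 122 CPM). Their part in the members' levels was not tested.

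With aGMCSF added to aPD1, every member was lower than in aPD1 alone, by a median of -0.95. The median was -1.42 with higher-numbered tumors alone and -0.56 with a replicate block. The log2 difference was -0.98 (SE 0.47) for H2-Aa, -0.96 (SE 0.47) for H2-Ab1, -0.96 (SE 0.48) for H2-Eb1, -1.0 (SE 0.47) for Cd74 and -0.94 (SE 0.42) for Ciita. It was -0.85 (SE 0.22) for H2-DMa, -0.67 (SE 0.22) for H2-DMb1 and -0.78 (SE 0.27) for H2-DMb2. Every tumor was below every aPD1 tumor for Cd74 and H2-DMa, as for 2.2% of all genes. The 3 DM chains were the members called, beside 8.75% of all genes called lower and 4.77% called higher. The DM chains had the smaller differences and the smaller errors. Among the other pathway genes 11 of 27 fell and none rose (list median -0.198), with Ctss at -0.82 (adjusted p = 0.00164) and Marchf1 at -0.95 (adjusted p = 0.00504) by edgeR. With lower-numbered tumors alone 1 was called. Ifng differed by -1.51 (SE 0.53) and did not pass (adjusted p = 0.0514). Here 7 of 8 macrophage markers and 1 of 5 T cell markers fell as well, with summed levels of 1970 to 2410 CPM and 18.7 to 52.0 CPM. Of the conventional dendritic cell markers 1 of 8 fell and 1 rose (sum of 69.9 to 102 CPM), of the B cell markers 0 of 5 were called (2.85 to 4.57 CPM), and of the fibroblast markers 2 of 3 fell (545 to 1070 CPM). Their part was not tested.

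With aIL2RB added to aPD1, the members were lower than in aPD1 alone by a median of -1.83. The log2 difference was -1.95 (SE 0.44) for H2-Aa, -1.93 (SE 0.44) for H2-Ab1, -2.10 (SE 0.46) for H2-Eb1 and -1.98 (SE 0.44) for Cd74. It was -1.74 (SE 0.40) for Ciita, -1.24 (SE 0.21) for H2-DMa, -1.19 (SE 0.21) for H2-DMb1 and -0.69 (SE 0.26) for H2-DMb2. All 8 were called, a description of values that guided their choice, beside 14.5% of all genes called lower and 13% called higher. For 7 members, all but H2-DMb2, every aPD1 + aIL2RB tumor was below every aPD1 tumor, as was the case for 2.99% of all genes. Of the 27 other pathway genes 12 fell and 1 rose (list median -0.167). Ifng fell by 2.28 (adjusted p = 0.000683), Marchf1 by 1.2 (adjusted p = 6.212e-05), Ctss by 1.11 (adjusted p = 3.116e-06) and Irf1 by 0.31 (adjusted p = 0.0208) in edgeR's test. Marchf8, a relative of Marchf1, was the single riser, at 0.13 (adjusted p = 0.041), and was lost in 9 fits leaving out 1 tumor. The 5 genes of class I presentation, H2-K1, H2-D1, B2m, Tap1 and the class I coactivator Nlrc5, all fell, with a median of -0.499 and Nlrc5 at -0.92 (adjusted p = 0.00138). The T cell markers fell in 4 of 5 cases, to a summed 2.62 to 22.2 CPM, and the macrophage markers in 7 of 8, to 1870 to 2460 CPM. Conventional dendritic cell markers fell in 4 of 8 cases and rose in 1 (sums of 83.8 to 122 CPM in aPD1 and 54.9 to 94.5 CPM here), B cell markers fell in 2 of 5 (2.8 to 13.6 and 1.79 to 3.93 CPM) and fibroblast markers in 3 of 3 (451 to 1680 and 328 to 1080 CPM). The part of these cells was not tested.

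With both blocking antibodies added, the median of the members was -1.74 against aPD1, or -4.08 with higher-numbered tumors alone. With lower-numbered tumors alone the differences of H2-Aa and Ciita were smaller than the pooled ones, as given below. The difference was -1.77 (SE 0.44) for H2-Aa, -1.77 (SE 0.44) for H2-Ab1, -1.92 (SE 0.46) for H2-Eb1 and -1.87 (SE 0.44) for Cd74. It was -1.72 (SE 0.41) for Ciita, -1.52 (SE 0.21) for H2-DMa, -1.30 (SE 0.21) for H2-DMb1 and -1.05 (SE 0.26) for H2-DMb2. All 8 were again called, beside 14.3% of all genes called lower and 13.1% called higher. These means stand between sets of tumors that differ widely, as described below, and only Cd74, H2-DMa and H2-DMb1 had every tumor below the aPD1 range, as did 0.827% of all genes. Of the 27 other pathway genes 13 fell and none rose (list median -0.168), among them Ifng at -2.65 (adjusted p = 0.000175), Ctss at -1.05 (adjusted p = 9.073e-06) and Ifi30, the reductase that unfolds antigens in the endosome, at -1.01 (adjusted p = 3.362e-08). The count was 2 with lower-numbered tumors alone. The 5 class I genes fell here too, with a median of -0.58. The T cell markers fell in 5 of 5 cases, to a summed 0.667 to 50.1 CPM, and the macrophage markers in 7 of 8, to 1530 to 3280 CPM. Conventional dendritic cell markers fell in 3 of 8 cases and rose in 1 (sum of 43.8 to 134 CPM), and B cell markers fell in 1 of 5 (2.04 to 4.4 CPM) and fibroblast markers in 1 of 3 (489 to 1140 CPM). Their part was not tested. These 4 comparisons share the aPD1 tumors, so their values are set side by side and not compared with each other.

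Further markers varied between tumors and groups as well. Ptprc, the common leukocyte antigen CD45, was at 150 to 180 CPM in isotype and 205 to 412 CPM in aPD1. It was at 142 to 229 CPM in aPD1 + aGMCSF, 94.8 to 187 CPM in aPD1 + aIL2RB and 86.8 to 368 CPM in aPD1 + aGMCSF + aIL2RB, where tumors 1 to 6 had 125 to 368 CPM and tumors 7 to 11 had 86.8 to 130 CPM. Shisal2b, the marker of the MC38 cells, had medians of 20.1 CPM in isotype, 14.8 in aPD1, 19.7 in aPD1 + aGMCSF, 25.6 in aPD1 + aIL2RB and 19.7 in aPD1 + aGMCSF + aIL2RB, and of the 4 comparisons it was called in aPD1 + aIL2RB against aPD1 (0.70, adjusted p = 0.00235 by edgeR). The skeletal muscle genes Acta1 and Ckm had a summed median of 0.591 CPM in isotype (0.14 to 14 CPM) and 39.6 CPM in aPD1 (0.344 to 310 CPM), overlapping, and medians of 7.48, 14.4 and 17 CPM in the 3 blocked groups. The part of leukocytes, tumor cells and muscle in the members' levels was not tested.

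**Figure D2:**
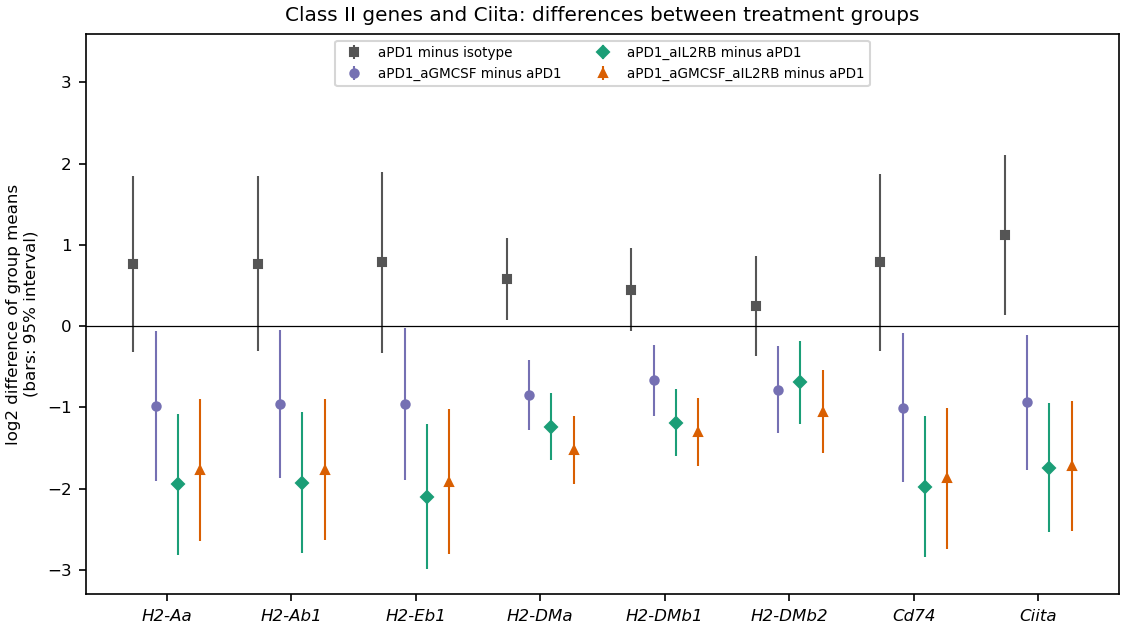
Log2 difference of group means for each member, with an approximate 95% interval, in aPD1 against isotype and in the 3 blocked groups against aPD1. All 8 members lie above 0 in the first comparison and below 0 in the other 3, H2-Aa at 0.77, -0.98, -1.95 and -1.77. In the first comparison only the intervals of H2-DMa and Ciita exclude 0.

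Against isotype, aPD1 + aGMCSF tumors had log2 differences between -0.54 (H2-DMb2) and 0.18 (Ciita), and no member was called. No gene of the 16932 was called in this comparison by edgeR (0.0%), where 938 had an unadjusted p under 0.05, and DESeq2 called 5. In aPD1 + aIL2RB the differences from isotype were -1.18 (SE 0.47) for H2-Aa, -1.32 (SE 0.48) for H2-Eb1, -0.66 (SE 0.23) for H2-DMa and -0.62 (SE 0.44) for Ciita, with no member called beside 3.2% of all genes. The gap in H2-DMa was wider in lower-numbered tumors, with means of 25.1 CPM here and 51.3 CPM in isotype. In higher-numbered tumors the means were 29.6 and 37.3 CPM. In aPD1 + aGMCSF + aIL2RB the differences from isotype were -1.0 (SE 0.47) for H2-Aa, -0.95 (SE 0.23) for H2-DMa, -0.85 (SE 0.23) for H2-DMb1 and -0.60 (SE 0.44) for Ciita, and H2-DMa and H2-DMb1 were called beside 10.2% of all genes. The pooled values of this group describe neither set of tumors: H2-Aa was at -0.60 with lower-numbered tumors alone and at -3.10 with higher-numbered ones, and Ciita at -0.13 and -2.57. Of the other pathway genes, only Ifi30 passed against isotype, with both blocking antibodies (-0.41, adjusted p = 0.027, edgeR), a call that was lost without isotype replicate 2 (adjusted p = 0.115) or replicate 4 (adjusted p = 0.0524) and in the fit of only the groups compared (adjusted p = 0.0854). In that comparison 0 pathway genes passed with lower-numbered tumors alone and 8 with higher-numbered ones. Class I genes H2-K1 (-0.52, adjusted p = 0.0111), H2-D1 (-0.42, adjusted p = 0.0223) and B2m (-0.35, adjusted p = 0.0394) fell there as well.

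Among the blocked groups no member was called. The background was 1.52% of genes called between aPD1 + aIL2RB and aPD1 + aGMCSF, 2.13% between aPD1 + aGMCSF + aIL2RB and aPD1 + aGMCSF, and 0.00591% between the 2 aIL2RB groups. Between the last of these pairs the fitted difference of the members had a median of 0.06, with a range from -0.36 to 0.18, although the mean of log2 CPM was lower with both antibodies, by 0.559 for H2-Aa. The fit compares mean counts, on which the high tumors weigh most, and the mean of logs does not. No other pathway gene was called in these 3 comparisons with the tumors pooled. With higher-numbered tumors alone, aPD1 + aGMCSF + aIL2RB had a members' median of -2.62 and 8 pathway genes called against aPD1 + aGMCSF, and a median of -2.02 and 4 called against aPD1 + aIL2RB.

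Within aPD1 + aGMCSF + aIL2RB the tumors fell into an upper and a lower set by replicate number. Ciita was at 30.9, 23.6, 9.41, 17, 24.6 and 11.5 CPM in tumors 1 to 6 and at 2.64, 0.821, 1.34, 5.24 and 2.97 CPM in tumors 7 to 11. H2-Aa was at 528, 436, 147, 227, 446 and 221 CPM in the former and at 54.3, 12.8, 24.9, 73.2 and 25.6 CPM in the latter. For both genes the sets did not overlap, and tumors 8 and 9 were lowest. H2-Ab1 was at 431, 327, 107, 190, 345 and 162 CPM against 45.0, 11.0, 20, 60.0 and 21 CPM. H2-Eb1 was at 454, 354, 115, 200, 339 and 157 CPM against 39.9, 9.91, 21.2, 55.2 and 19.7 CPM. Cd74 was at 1160, 937, 319, 536, 946 and 449 CPM against 112, 24.8, 57.2, 192 and 60.7 CPM. Each of these genes was highest in replicate 1 and lowest in replicate 8.

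The DM chains showed a smaller gap in the same tumors. H2-DMa was at 41.2, 37.4, 19.2, 31.3, 33.2 and 18.5 CPM in tumors 1 to 6 and at 14.7, 10.5, 12.6, 17.4 and 9.84 CPM in tumors 7 to 11. H2-DMb1 was at 63.9, 52.6, 31.9, 40.3, 58.2 and 40.3 CPM against 22.3, 14.2, 15, 25.4 and 19 CPM. H2-DMb2 was at 3.56, 1.95, 1.91, 2.77, 2.1 and 1.68 CPM against 1.86, 0.411, 1.65, 1.56 and 0.612 CPM, with overlap. The log2 difference of the higher from the lower numbers was -3.14 (SE 0.37) for H2-Aa, -3.06 (SE 0.39) for H2-Ab1, -3.22 (SE 0.39) for H2-Eb1, -3.02 (SE 0.39) for Cd74 and -2.92 (SE 0.37) for Ciita. It was -1.22 (SE 0.20) for H2-DMa, -1.33 (SE 0.19) for H2-DMb1 and -0.93 (SE 0.31) for H2-DMb2, and the median of the 8 was -2.97. All 8 were called, where 8.72% of all genes were called lower and 6.19% higher, and for 7 members every higher-numbered tumor was below every lower-numbered tumor, which held for 3.94% of all genes. As the members were chosen with this contrast in view, these counts are a description.

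**Figure D3:**
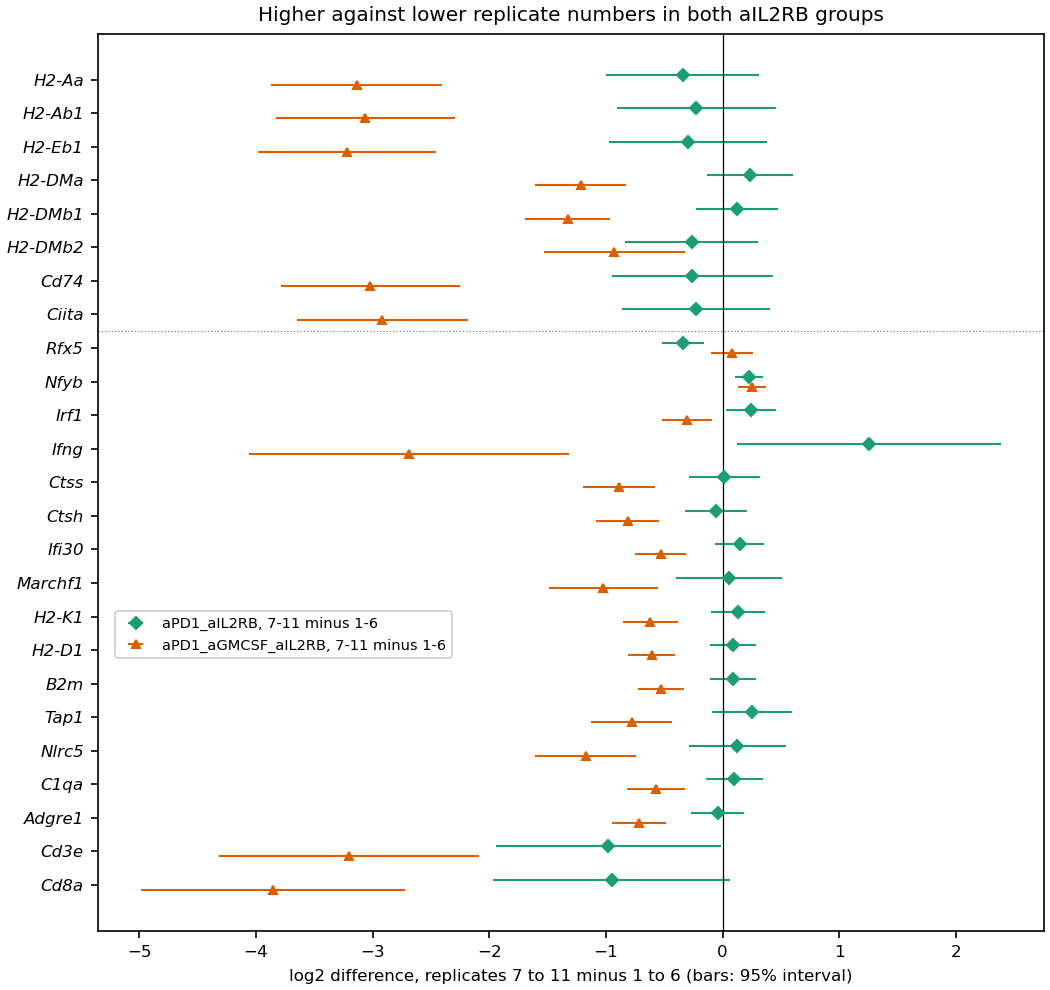
Log2 difference of tumors 7 to 11 from tumors 1 to 6, with its 95% interval, in aPD1 + aIL2RB (diamonds) and aPD1 + aGMCSF + aIL2RB (triangles) for the members, above the dotted line, and for other genes of the report. With both blocking antibodies Ciita is at -2.92 and H2-DMa at -1.22, while all members lie between -0.34 and 0.24 with aIL2RB alone.

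The same split in aPD1 + aIL2RB gave overlapping sets. Ciita was at 14.1, 6.76, 17.6, 15.9, 11.2 and 8.98 CPM in tumors 1 to 6 and at 5.75, 9.32, 18.9, 6.24 and 12.9 CPM in tumors 7 to 11. H2-Aa was at 231, 78.0, 298, 225, 183 and 153 CPM against 91.0, 99.2, 228, 101 and 248 CPM. Low tumors, such as 2, 7, 8 and 10 for H2-Aa, occurred in both sets. Cd74 was at 529, 165, 679, 520, 400 and 340 CPM against 240, 208, 580, 227 and 579 CPM, and H2-DMa at 27.2, 17.7, 30.2, 30.7, 24.1 and 20.6 CPM against 23.4, 28.2, 42.3, 20.4 and 33.6 CPM. The log2 differences ranged from -0.34 (SE 0.33) for H2-Aa to 0.24 (SE 0.19) for H2-DMa, and no member was called beside 6.86% of genes lower and 9.04% higher. Over all genes 2691 were called here and 2524 in the group with both blocking antibodies, so the split reached many genes in both groups. With a replicate block these calls were lost, as given in the closing part on processing. What the members did in either group is a description, since this split guided their choice.

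Compared within the split, the 2 aIL2RB groups differed in opposite directions for 7 of the 8 members. Among tumors 1 to 6, levels with both blocking antibodies were above those with aIL2RB alone, by 0.78 (SE 0.32) for H2-Aa, 0.72 (SE 0.34) for Cd74, 0.66 (SE 0.30) for Ciita and 0.27 (SE 0.18) for H2-DMa. Among tumors 7 to 11 they were below, by a log2 difference of -2.02 (SE 0.37) for H2-Aa, -2.04 (SE 0.39) for Cd74, -2.03 (SE 0.38) for Ciita and -1.19 (SE 0.20) for H2-DMa. H2-DMb2 was lower with both blocking antibodies in either set, at -0.12 (SE 0.28) and -0.78 (SE 0.32). Against the aPD1 tumors of the same split, the group with both blocking antibodies was at -1.01 for H2-Aa and -0.86 for Ciita in the lower numbers and at -4.17 and -4.02 in the higher numbers. The pooled difference of -1.77 for H2-Aa between this group and aPD1 thus describes neither set.

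In the other 3 groups the split was not named in the rule for choosing the members, and it was tested. Earlier work had split these groups as well, so these tests are not shown to be independent of the choice. Among isotype tumors the higher numbers (3 tumors against 2) were lower by -0.37 to -0.67 on the log2 scale, with adjusted p from 0.571 to 0.824 by edgeR, and 1.02% of all genes were called. For 7 members every higher-numbered isotype tumor was below the lower-numbered ones, as for 14.7% of all genes with so few tumors. In aPD1 the differences were 0.03 to 0.24 (adjusted p from 0.855 to 0.989, 0.248% of genes called). In aPD1 + aGMCSF they were -0.15 to -0.81 (adjusted p from 0.275 to 0.760, 0.661% called), H2-Eb1 having the largest difference (-0.81, SE 0.38, adjusted p = 0.286). No member passed in any of the 3 groups.

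Other pathway genes were tested in the same split. In aPD1 + aGMCSF + aIL2RB, 9 of 27 fell and 1 rose in the higher-numbered tumors (edgeR, list median -0.15). Over all genes 8.72% were called lower and 6.19% higher in this group. Ifng, listed at 0.294 to 3.25 CPM in tumors 1 to 6 and at 0.0 to 0.363 CPM in tumors 7 to 11, fell by 2.69 (adjusted p = 0.00706, or 0.0555 without replicate 1 of the group). Ctss fell by 0.89 (adjusted p = 0.000184), Ctsh by 0.81 (adjusted p = 0.000114) and Marchf1 by 1.02 (adjusted p = 0.0027). Ifi30, Lgmn, Ctsb and Ctsl, all proteins of the endosome or lysosome, fell by 0.53, 0.50, 0.47 and 0.22. Irf1 was at -0.31 and did not pass (adjusted p = 0.0528). Of the factors that hold Ciita at the promoter, Nfyb, a subunit of NF-Y, rose by 0.25 (adjusted p = 0.00514), and Rfx5, the DNA-binding subunit of RFX, was at 0.08 (SE 0.09, adjusted p = 0.645). Of the 8 endosomal enzymes 6 thus fell in the tumors where the members were low, Ctsd and Ctsz not being called, and of the 7 promoter factors none fell.

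In aPD1 + aIL2RB, 1 of 27 fell in the higher-numbered tumors by edgeR, Rfx5 at -0.34 (adjusted p = 0.0118), and 3 rose, Nfyb at 0.23 (adjusted p = 0.0127), Nfyc at 0.21 (adjusted p = 0.0332) and Ifngr2 at 0.16 (adjusted p = 0.0416). Over all genes 6.86% were called lower and 9.04% higher in this group, so the count for the list was near the share of all genes. Ifng was at 1.25 (SE 0.58) and did not pass (adjusted p = 0.139). In aPD1, Ctsd rose by 0.49 (adjusted p = 0.0457). In aPD1 + aGMCSF, Nfyb rose by 0.33 (adjusted p = 0.0157) and Rfx5 fell by 0.43 (adjusted p = 0.0386). The calls of Rfx5, Nfyc, Ifngr2 and Ctsd, and that of Nfyb in aPD1 + aGMCSF, were lost in some of the fits leaving out 1 tumor. In isotype tumors none of the 27 passed. H2-Oa and H2-Ob, the DO chains, stayed at 0.101 to 1.26 and 0.4 to 3.56 CPM over the 42 tumors and were called in no comparison.

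Class I presentation fell in the same tumors. In the higher-numbered tumors of aPD1 + aGMCSF + aIL2RB, H2-K1 fell by 0.62 (adjusted p = 0.000478), H2-D1 by 0.61 (adjusted p = 0.000105), B2m, the light chain of class I, by 0.53 (adjusted p = 0.000377), the peptide transporter subunit Tap1 by 0.78 (adjusted p = 0.00224) and Nlrc5 by 1.17 (adjusted p = 0.00034) in edgeR's test. In aPD1 + aIL2RB the same genes were at 0.09 to 0.25 and none passed. The difference of the split between the 2 groups passed the interaction test for all 5 (adjusted p from 0.0133 to 0.0236). Nlrc5 is the counterpart of Ciita for class I promoters. Per kilobase, Ciita was 0.0958 to 0.123 times Nlrc5 in tumors 1 to 6 with both blocking antibodies and 0.0147 to 0.049 times in tumors 7 to 11, without overlap. With aIL2RB alone it was 0.0733 to 0.126 and 0.0532 to 0.111 times.

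Ratios within a tumor show which members fell out of proportion to a few chosen genes. H2-Aa per kilobase was 6.58 to 12.2 times H2-DMa in tumors 1 to 6 of aPD1 + aGMCSF + aIL2RB, and 1.11 to 3.82 times in tumors 7 to 11. In aPD1 the ratio was 8.52 to 10.1, and with aIL2RB alone it was 4.01 to 8.96 in tumors 1 to 6 and 3.2 to 6.7 in tumors 7 to 11. The ratio of H2-Aa to C1qa, a complement chain of macrophages, was 0.183 to 0.473 in tumors 1 to 6 and 0.0199 to 0.0926 in tumors 7 to 11. Against H2-K1 it was 0.106 to 0.241 and 0.0134 to 0.0484. By contrast, H2-Aa over Ciita was 33.6 to 48.0 and 21.7 to 51.8, and Cd74 over H2-Aa was 4.6 to 5.34 and 4.37 to 5.93, both overlapping. The classical chains, Cd74 and Ciita thus differed by like amounts, and by more than DM, class I or the macrophage gene. No ratio to a T cell gene was taken. Cd8a, Cd3e and Ifng fell by similar or larger amounts in the same tumors, so a fall of this size was not particular to class II.

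Markers of other cells differed between the sets of tumors in aPD1 + aGMCSF + aIL2RB. Macrophage markers fell in 6 of 8 cases (median -0.574, Adgre1 at -0.72), and their sum was 2060 to 3280 CPM in tumors 1 to 6 and 1530 to 1860 CPM in tumors 7 to 11. T cell markers fell in 5 of 5 cases (Cd8a at -3.85, Cd3e at -3.20), and their sum was 8.62 to 50.1 and 0.667 to 4.25 CPM. Conventional dendritic cell markers fell in 2 of 8 cases, Xcr1 at -1.86 and Itgax at -1.55, with sums of 67.4 to 134 and 43.8 to 70.4 CPM. B cell markers, with sums of 2.89 to 4.4 and 2.04 to 3.78 CPM, passed in 0 of 5 cases, and Shisal2b was at 11.1 to 28.8 and 12.7 to 25.3 CPM. Ribosomal RNA genes took a median of 5.9% and 9.3% of the counts. In aPD1 + aIL2RB no macrophage, conventional dendritic cell or B cell marker passed, the macrophage sums being 1920 to 2460 and 1870 to 2230 CPM. T cell markers were lower in its higher-numbered tumors too, with a median of -0.98, 1 of 5 called and sums of 3.67 to 22.2 and 2.62 to 8.11 CPM. None of these lists had a gene at 0 in every tumor of a group. The part of these cells, or of the tumor set, in the members' levels was not tested.

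Over the 42 tumors the members followed Ciita on the log2 scale, H2-DMb2 the least. The slope on Ciita was 1.07 for H2-Aa, 1.06 for H2-Ab1, 1.12 for H2-Eb1 and 1.09 for Cd74, with Pearson r of 0.973, 0.972, 0.969 and 0.973. For H2-DMa and H2-DMb1 the slope was 0.519 and 0.509 with r of 0.921 and 0.944, and for H2-DMb2 it was 0.395 with r of 0.763. The classical chains and Cd74 thus varied about in proportion to Ciita, and the DM chains less. With the means of each group and of each set of replicate numbers taken out, r was 0.88 for H2-Aa, 0.886 for Cd74 and 0.864 for H2-DMb1, and 0.525 for H2-DMb2. Outside the members, Nlrc5 had a slope of 0.438 (r = 0.935), H2-K1 0.248 (r = 0.894) and Ifng 0.938 (r = 0.825). Rfx5 had a slope of -0.04 (r = -0.219) and kept to 21.2 to 40.4 CPM in all tumors. Cell markers followed as well, Cd8a with a slope of 1.48 (r = 0.895) and C1qa with 0.265 (r = 0.813). All genes of a tumor share its library, depth and cell content, and these correlations are descriptions.

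**Figure D4:**
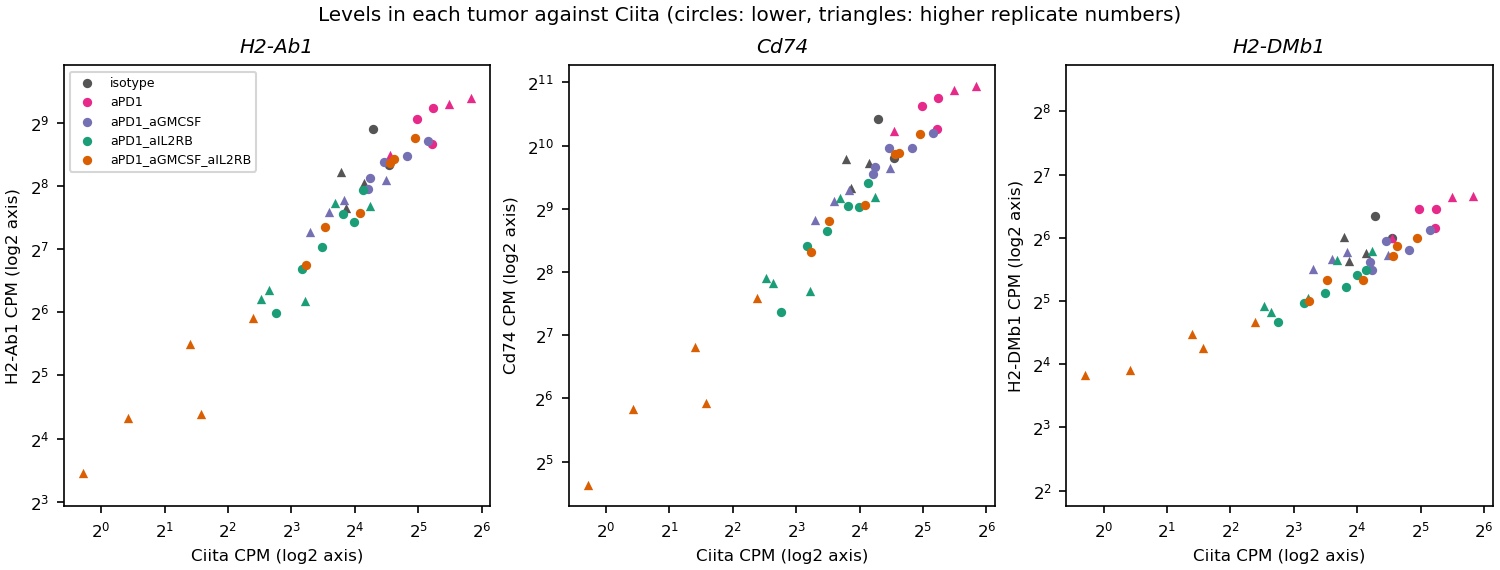
Level of H2-Ab1, Cd74 and H2-DMb1 against that of Ciita in the same tumor (CPM, log2 axes of equal scale), 1 point for each of 42 tumors, colored by group. H2-Ab1 and Cd74 follow Ciita with slopes of 1.06 and 1.09 and H2-DMb1 with 0.509, and the 5 triangles at the lower left are tumors 7 to 11 of aPD1 + aGMCSF + aIL2RB.

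Among themselves the classical chains and Cd74 were almost interchangeable, with r of 0.997 to 0.998 in each pair over the 42 tumors. H2-DMb2 had the lowest values, at 0.763 with Ciita and 0.775 with H2-Eb1. Of 12434 genes ranked by their correlation with the mean of the members, the nearest were Plbd1 (0.983), Dnase1l3 (0.963), Klrb1b (0.96), Serpina3g (0.957), Gbp8 (0.955), Cxcl9 (0.952), Bcl2a1b (0.945), Sema4a (0.945), H2-D1 (0.945) and Cxcl16 (0.943). Cxcl9 encodes an interferon-induced chemokine and Gbp8 a guanylate-binding protein. Those nearest to Ciita alone were Dnase1l3 (0.961), Plbd1 (0.961), Gbp8 (0.956), Klrb1b (0.944), Cxcl9 (0.942), Tlr12 (0.937), Serpina3g (0.936), Nlrc5 (0.935), Klrk1 (0.934) and Gbgt1 (0.932), and 6 genes were in both lists. With group means taken out, 5 of the first 10 genes for the members remained, led again by Plbd1 (0.971).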

How the data were processed

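RNA of 42 whole tumors was isolated with an RNeasy kit, and poly(A) libraries were made with the KAPA mRNA HyperPrep kit and sequenced in pairs. Per the study's methods, reads were mapped with Bowtie 1.2.3 to transcriptomes of the founder strains, built on GRCm38 from variants of each strain, and reads that fit several genes or haplotypes were shared out by gbrs. The authors deposited 1 table of expected counts per gene, summed over haplotypes and not normalized, in which 15.2% of values were not whole. Class II genes differ strongly between strains, and reads of host and tumor alleles enter the same sum. Among the members, read sharing touched H2-DMb1 and H2-DMb2.

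Of 26811 Ensembl IDs, 26629 were given a symbol from GENCODE. Counts were rounded, genes were filtered with filterByExpr (minimum count of 10, minimum total of 15), and 16932 genes in all 42 tumors were fitted with edgeR 4.0.16 (R 4.3.3), 1 mean per group, TMM normalization and quasi-likelihood tests, Benjamini-Hochberg adjusted over all genes of a comparison at 0.05. A second fit had 1 mean for each group and set of replicate numbers. Log2 CPM used a prior count of 2. Calls were tested on simulated counts first. Alternatives were DESeq2 1.42.0, its size factors, library size alone, no filter, only the groups compared, a term for the set, a replicate block and leaving out each tumor. Totals of 7155486 to 24101674 counts limit the precision of genes under about 1 CPM.

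The members and gene lists were chosen with earlier results of these data known. Text names the members, up to 3 other pathway genes called per direction, the 10 genes nearest to the members and to Ciita, and class I genes; further called genes were named after their values were seen, and 1 pathway gene that was counted is not reported here. No 2 libraries agreed within sampling noise (chi-square per degree of freedom of at least 5.27). The labels call the tumors biological replicates, and p-values measure the spread between them. Correlations of same-numbered tumors of different groups were small (-0.168 to 0.193), and the tumors were not paired. No test of pairing was run. Promoters came from RefSeq (GRCm38.p6).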

Additional observations from a re-analysis of the deposited data

Results flagged for a closer look

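H2-DMb2 in aPD1 + aIL2RB had 1 tumor far from the others of its set: replicate 4 was at 4.59 CPM and the next of tumors 1 to 6 at 2.46 CPM, a gap of 0.753 of the range. H2-DMb1 was at 42.7 CPM in that tumor, within the 25.4 to 44.9 CPM of its set, and the pair shares reads. This was 1 of 56 sets of values examined, where chance flags about 1 in 20.

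The difference between higher- and lower-numbered tumors itself differed between the 2 aIL2RB groups for these other pathway genes in edgeR's interaction test. The log2 difference with both blocking antibodies minus that with aIL2RB alone was -3.94 for Ifng (adjusted p = 0.0224) and -0.553 for Irf1 (adjusted p = 0.0493). It was -0.903 for Ctss (adjusted p = 0.0263), -0.755 for Ctsh (adjusted p = 0.0323), -0.678 for Ifi30 (adjusted p = 0.0216) and -0.545 for Lgmn (adjusted p = 0.0224). The members are left out of this test, since the split in these groups guided their choice.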

How the results depend on the processing

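No called difference of a member or named gene changed sign under the alternatives run. The median log2 difference of the members moved by more than the spread in 11 fits that did not leave out single tumors, and by less in 124. With higher-numbered tumors alone it was -1.42 for aPD1 + aGMCSF against aPD1, -4.081 for aPD1 + aGMCSF + aIL2RB against aPD1, -2.798 against isotype, -2.617 against aPD1 + aGMCSF and -2.024 against aPD1 + aIL2RB. With lower-numbered tumors alone it was 0.3832 for aPD1 against isotype. With a replicate block it was -0.5576 for aPD1 + aGMCSF against aPD1, -1.229 for aPD1 + aIL2RB against aPD1 and 0.3094 for aPD1 + aGMCSF against isotype. The numbers gave no clear pairing of the tumors, which was not tested (same-number correlations from -0.168 to 0.193 over 67 pairs, 14 of 67 best matched by their own number). Between replicate sets the block, whose lower and higher numbers are linked only through tumors 6 to 9 of aPD1 + aGMCSF, gave a members' median of 0.05332 in aPD1 + aGMCSF and -2.221 in aPD1 + aGMCSF + aIL2RB, and edgeR called 0 genes in these groups and in aPD1 + aIL2RB (740, 1082 and 1326 at an unadjusted p under 0.05). The difference of the split between the aIL2RB groups, in which the same numbers occur, was then called for 106 genes, among them H2-K1, H2-D1, Ifi30 and Lgmn (adjusted p from 0.03824 to 0.04804), while Ifng, Ctss, Ctsh, Irf1, B2m, Tap1 and Nlrc5 were at 0.05037 to 0.06546.

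The count of other pathway genes called moved as follows. With lower-numbered tumors alone it was 0 for aPD1 against isotype, 1 for aPD1 + aGMCSF against aPD1, 2 for aPD1 + aGMCSF + aIL2RB against aPD1, 1 for aPD1 + aIL2RB against isotype and 0 for aPD1 + aGMCSF + aIL2RB against isotype. With higher-numbered tumors alone it was 8 for aPD1 + aGMCSF + aIL2RB against isotype, 8 against aPD1 + aGMCSF and 4 against aPD1 + aIL2RB. For aPD1 + aGMCSF + aIL2RB against isotype it was 2 with DESeq2, 3 with the block, 2 with the set as a term and 0 with only the groups compared, and against aPD1 + aGMCSF it was 1 with each of DESeq2, the set term and only the groups compared. For aPD1 + aIL2RB it was 4 with the block and 1 with only the groups compared against isotype, and 2 with only the groups compared against aPD1 + aGMCSF. Between replicate sets it was 0, 0 and 4 in aPD1 with library size, no filter and DESeq2, 0 and 1 in aPD1 + aGMCSF with library size and no filter, and 1, 2 and 2 in aPD1 + aIL2RB with library size, no filter and only the groups compared. Of the 10 genes nearest to the members, and of those nearest to Ciita, 4 remained with Spearman's rho. The cause of these moves was not tested.

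Leaving out each tumor, the count ranged from 5 (without aPD1 replicate 4) to 11 for aPD1 against isotype, 0 to 1 for aPD1 + aIL2RB against isotype, 0 to 4 for aPD1 + aGMCSF + aIL2RB against isotype and 0 to 2 against aPD1 + aGMCSF. Between replicate sets it ranged from 0 to 3 in aPD1, 0 to 2 in aPD1 + aGMCSF and 2 to 5 in aPD1 + aIL2RB. The members' median between sets ranged from -0.7176 to -0.2964 in isotype tumors (the latter without isotype replicate 2) and from -3.392 to -2.738 in aPD1 + aGMCSF + aIL2RB. Isotype has 2 and 3 tumors in its sets, which limits that comparison.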
